A study of Homo sapiens with 6 samples.

Results

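The genes that encode the proteasome and the chaperones that build it were taken from PRO-seq and RNA-seq counts of K562 cells, a human leukemia line with erythroid features. Protein-coding genes named PSMA, PSMB, PSMC, PSMD, PSME, PSMF or PSMG with a number gave 48 genes, 1 counted transcript each, of 37339 transcripts matched to an annotation. They lie on 17 chromosomes, with 8 on chromosome 14 and 7 on chromosome 17. All libraries came from this 1 line, with no treatment, time or genotype in the labels, and formed 2 groups by assay. The 4 RNA-seq libraries measured steady-state RNA in total RNA depleted of rRNA, and the 2 PRO-seq libraries measured nascent RNA at engaged RNA polymerases. By the study's methods the cells were grown in a single flask, so the p-values below measure the spread between libraries and not between cultures.

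The proteasome degrades proteins tagged with ubiquitin. Its 20S core is a barrel of alpha rings (PSMA genes) around beta rings (PSMB genes), and the beta subunits PSMB5, PSMB6 and PSMB7 carry the proteolytic sites. The 19S regulatory particle binds and unfolds substrates with a ring of ATPases (PSMC genes) and further subunits (most PSMD genes). Interferon induces PSMB8, PSMB9 and PSMB10, which take the place of PSMB5, PSMB6 and PSMB7 in the immunoproteasome. Each ring holds its subunits in equal numbers, which makes the spread of their RNA levels of interest.

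Promoter windows were found for 42 of the 48 genes in RefSeq (GRCh38.p14), and the 250 bases before each start were searched on both strands. The antioxidant response element TGACNNNGC, bound by the transcription factors NFE2L1 and NFE2L2 with small MAF proteins, was present at 13 genes (31.0%), against 13.2% of all 27305 genes with a window. The ETS motif CCGGAAG was present at 11 genes (26.2%, against 10.2%), the GC box GGGCGG at 26 (61.9%, against 46.2%), the CCAAT box CCAAT at 19 (45.2%, against 37%) and TATAAA at 5 (11.9%, against 13%). The motif AAGATGGCG bound by YY1 was present at PSMC5 alone and GCGCATGCG, bound by nuclear respiratory factor, at PSMA4 alone. These shares describe letters in windows, and no binding was measured here. The median GC content was 61.6% over the 42 windows (43.6% to 76.8%) and 58.0% over all windows. The 150 bases before the start are shown for 4 genes with an antioxidant response element, in capitals, chosen to span the highest and lowest RNA-to-nascent ratios reported below. None of the capitals overlapped another motif of the search.
PSMB3 (chr17:38752591-38752740, plus strand): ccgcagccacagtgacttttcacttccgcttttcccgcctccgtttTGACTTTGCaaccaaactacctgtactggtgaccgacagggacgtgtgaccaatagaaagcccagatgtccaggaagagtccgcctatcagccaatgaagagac
PSMD3 (chr17:39980657-39980806, plus strand): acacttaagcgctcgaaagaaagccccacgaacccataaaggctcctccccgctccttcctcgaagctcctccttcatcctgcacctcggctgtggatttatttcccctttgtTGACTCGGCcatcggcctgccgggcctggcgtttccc
PSMD5 (chr9:120842923-120843072, minus strand): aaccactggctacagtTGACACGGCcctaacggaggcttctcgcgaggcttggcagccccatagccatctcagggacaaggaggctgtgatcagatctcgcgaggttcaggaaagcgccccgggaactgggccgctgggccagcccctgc
PSME4 (chr2:53970994-53971143, minus strand): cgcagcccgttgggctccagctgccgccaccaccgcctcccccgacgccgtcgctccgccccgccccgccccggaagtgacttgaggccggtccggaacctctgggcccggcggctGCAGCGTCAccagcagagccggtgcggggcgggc

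The match began 104 bases before the start in PSMB3, 37 in PSMD3, 134 in PSMD5 and 34 in PSME4, where it lay on the opposite strand. The interferon-stimulated response element GAAANNGAA was present at 5 genes (11.9%, against 8.41% of all genes), which were PSMB4, PSMG4, PSME2, PSMA4 and PSMB10. Here the immune beta subunit PSMB10, the interferon-inducible activator PSME2 and the assembly chaperone PSMG4 are shown, because each held it close to its start.
PSMB10 (chr16:67936851-67937000, minus strand): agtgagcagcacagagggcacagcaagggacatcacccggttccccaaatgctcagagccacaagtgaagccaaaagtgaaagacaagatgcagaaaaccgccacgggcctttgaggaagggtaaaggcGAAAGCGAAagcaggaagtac
PSME2 (chr14:24146611-24146760, minus strand): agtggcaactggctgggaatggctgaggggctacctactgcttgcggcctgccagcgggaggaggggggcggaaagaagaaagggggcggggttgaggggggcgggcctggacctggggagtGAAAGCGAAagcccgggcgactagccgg
PSMG4 (chr6:3258797-3258946, plus strand): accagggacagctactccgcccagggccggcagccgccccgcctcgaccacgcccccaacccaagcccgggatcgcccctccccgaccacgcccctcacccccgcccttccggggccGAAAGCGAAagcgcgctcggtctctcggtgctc

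The match began 21 bases before the start in PSMB10, 28 in PSME2 and 33 in PSMG4. The windows of PSMB8 and PSMB9 held no match to these letters.

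The libraries held between 5732780 and 9002746 counts on transcription units (TUs) for RNA-seq, and 6993816 and 7245632 for PRO-seq. The K562 markers GATA1, TAL1, KLF1, LMO2, HBG1, HBG2, HBE1 and TFRC were present, at 79.7 to 6287 RNA-seq TPM. CD3E, MS4A1, ALB and KRT5, markers of T cells, B cells, liver and epithelium, were at 0.48 TPM or less. RNA-seq replicates 1 and 3, and replicates 2 and 4, were closer to each other (chi-square per degree of freedom 1.13 and 1.12 over TUs with at least 20 counts) than the remaining pairs (1.75 to 2.13). Levels are TPM (counts per base of length, scaled to 1 sum in every library), with lengths of exons for RNA-seq and of the span without 500 bp at each end for PRO-seq. In bulk libraries, fewer cells that express a gene and less RNA per cell cannot be told apart.

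Proteasome genes were abundant in both assays, and more so in steady-state than in nascent RNA. Their TPM summed to 14488 ± 77.3 (SD, n = 4) in RNA-seq and 3910 ± 75.2 (SD, n = 2) in PRO-seq. A nascent level above 10 TPM and an RNA level above 1 TPM were required for a comparison of the assays, which 41 genes passed. Of these, 36 exceeded the upper quartile of the mRNAs past the same thresholds in RNA-seq (77.2 TPM) and 20 did in PRO-seq (82.9 TPM). Replicates were close, and the coefficient of variation over the 4 RNA-seq libraries ranged from 0.588% to 9.27% over these genes, with a median of 3.17%.

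**Figure D1:**
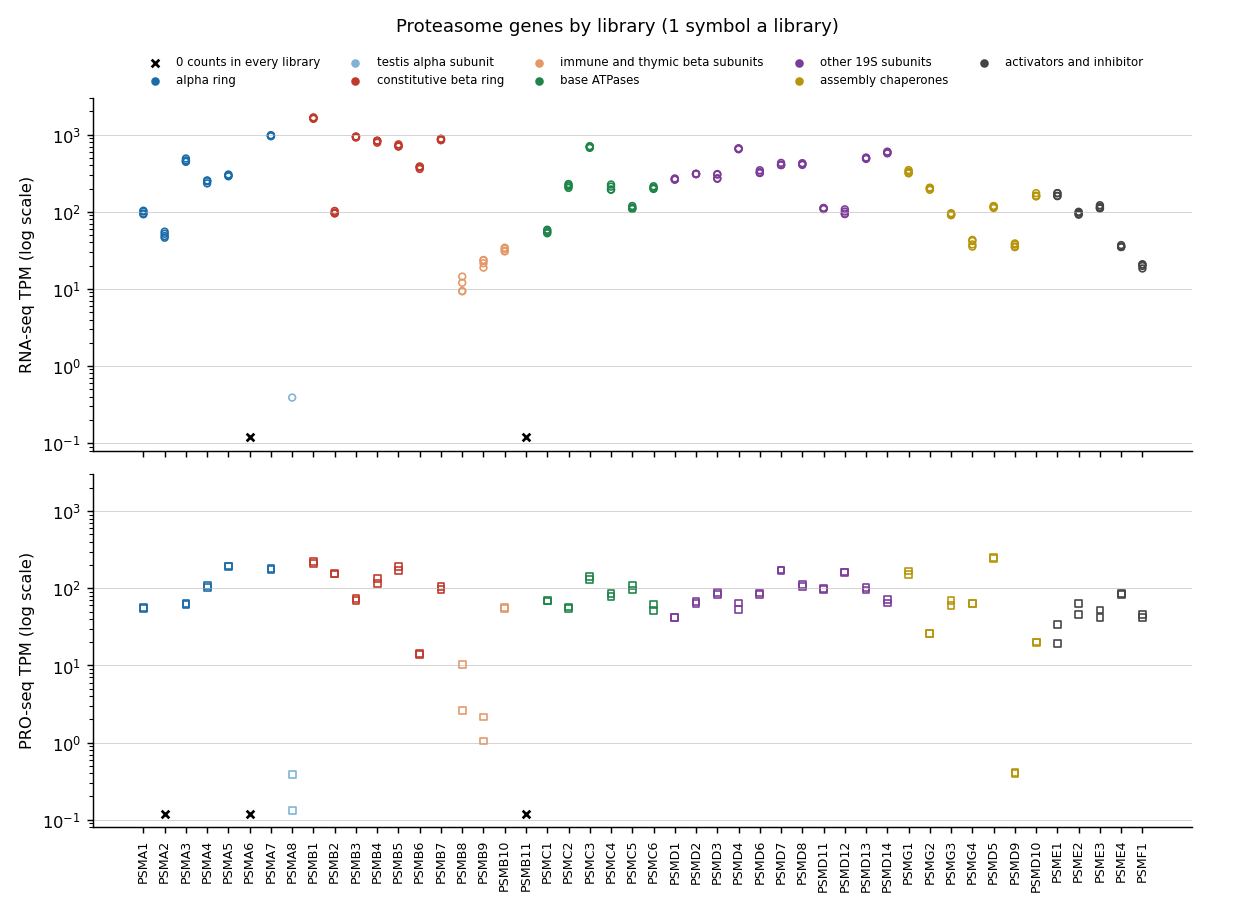
RNA-seq TPM (top, 4 libraries) and PRO-seq TPM (bottom, 2 libraries) of the 48 genes on log scales, with 1 symbol a library, colours for roles and crosses for genes with 0 counts in every library. Libraries of 1 assay lie close together for most genes, PSMA8, PSMB8, PSMB9 and PSME1 are spread most in PRO-seq, and the 3 RNA-seq libraries in which PSMA8 had no count are not drawn.

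Each gene was then compared between the assays. The ratio of RNA-seq to PRO-seq TPM, set to 0 on the log2 scale at the median mRNA, serves as a relative RNA half-life, since at steady state the RNA level is the synthesis rate times the lifetime. The PRO-seq signal also depends on the speed of the polymerase, which was not measured here. Across all 10053 TUs tested with edgeR, 40.0% lay above the median mRNA and 50.4% below it at an adjusted p under 0.05. Of the 41 proteasome genes, 34 lay above, 3 lay below and 4 were not called. Tested for a difference beyond 2-fold, 30 proteasome genes were above and 0 below, against 21.3% and 29.8% of all TUs. All TUs include noncoding ones. Among the 8733 mRNAs alone, 45.4% were above without that margin. Beyond 2-fold, 24.3% of the mRNAs were above and 2026 of the 8733 below. Without that margin the 3 genes below were PSME4, PSMF1 and PSMD5. With DESeq2 the counts of proteasome genes above and below were 34 and 3.

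The median log2 relative half-life over the 41 genes was 2.48, or 5.59 times that of the median mRNA, with quartiles of 1.15 and 3.30. The mRNAs had quartiles of -1.06 and 1.08, and 31 of the 41 genes lay above the upper one. Without PRO-seq replicate 2 the median was 2.33. Among 34 genes with little same-strand overlap and a counted span near that of the canonical transcript it was 2.53. That filter did not compare exons. It kept PSMF1 and PSMG3, whose counted transcripts cover 12.1% and 33.3% of the canonical exon bases, and PSME2, counted as a retained intron. The median was 2.41 over 75 cytosolic ribosomal protein genes, with 62 above and 9 below, and 3.36 over the 8 genes of the CCT chaperonin, which folds actin and tubulin, all above. Differences between these lists were not tested.

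**Figure D2:**
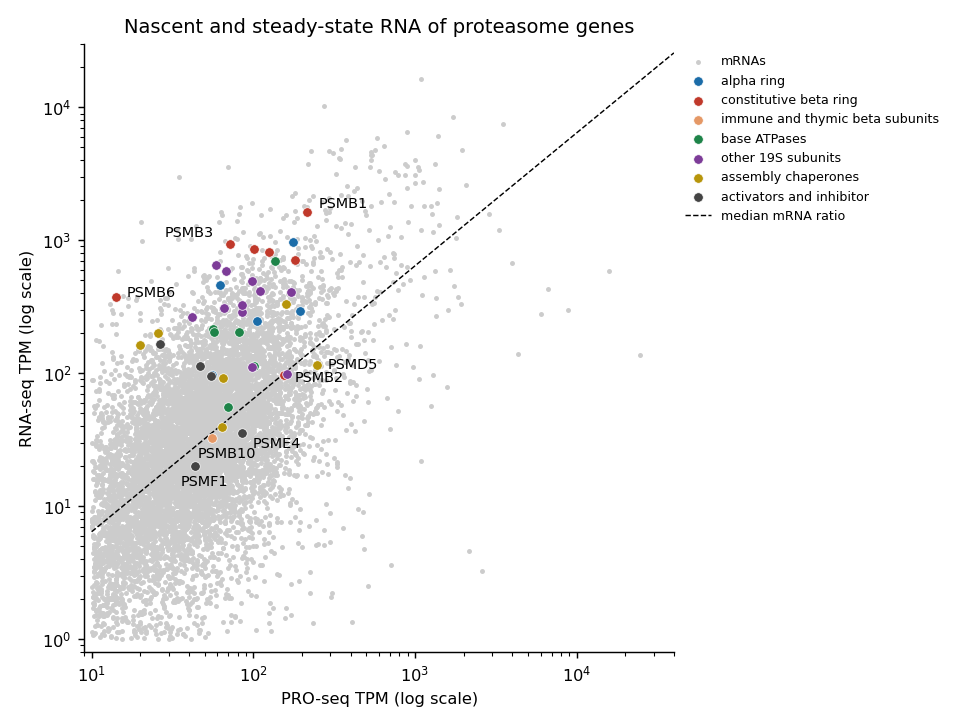
RNA-seq TPM against PRO-seq TPM, both from summed counts on log scales, for mRNAs past the thresholds (grey) and for the 41 proteasome genes (coloured by role), with the ratio of the median mRNA as a dashed line. Of the proteasome genes, 34 were called above the line and 3 below it.

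The PRO-seq threshold removes genes with little nascent signal, so these counts describe 41 genes and not all 48. The 7 genes without an estimate differed in kind. PSMA6, an alpha ring subunit, had 0 counts in all 6 libraries, and all of its exon bases and its PRO-seq window are covered by another counted TU on the same strand (ENSG00000258790). PSMA2, also of the alpha ring, had 270, 271, 194 and 237 RNA-seq counts and 0 PRO-seq counts, and its window is likewise covered in full (ENSG00000256646), as are 54.5% of its exon bases. PSMD9, a chaperone of the 19S base, had 34.7, 38.8, 35.3 and 37.5 RNA-seq TPM but 3 counts in each PRO-seq library, with 99.9% of the window covered (ENSG00000256950). Whether reads shared with these TUs were left uncounted was not tested. PSMB8 and PSMB9 fell under the PRO-seq threshold and are given with the catalytic subunits.

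The 2 tissue-restricted subunits were at or near 0. PSMA8, the alpha subunit of testis, had 3 RNA-seq counts in replicate 2 and 0 in the other three, and 2 and 6 PRO-seq counts. PSMB11, the beta subunit of the thymic cortex, had 0 counts in every library, which allows up to 0.119 TPM in RNA-seq and 6.77 TPM in PRO-seq (3 counts over the summed libraries). The limit in PRO-seq is high because its single exon leaves a window of 849 bp, so nascent RNA from PSMB11 below that limit was not detectable at this depth. Limits and intervals of this kind cover counting error only.

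The 5 alpha ring subunits with an estimate were all above the median mRNA, at a median log2 relative half-life of 1.85. PSMA7 had the highest RNA level of the ring, at 953, 964, 985 and 969 TPM in RNA-seq and 174 and 180 TPM in PRO-seq, and lay 3.08 (SE 0.0556) above the median mRNA. PSMA3 lay highest at 3.52 (SE 0.0595). Another TU on the same strand (ENSG00000258682) shares 15.4% of its PRO-seq window and 0% of its exon bases. The window of PSMA3 is also covered in full by TUs on the opposite strand. Whether reads were counted by strand is not stated in the labels or methods. PSMA4, PSMA5 and PSMA1 lay at 1.85, 1.24 and 1.43. PSMA1 was counted over a span of 138554 bp, 8.93 times that of its canonical transcript, and 59.5% of its exon bases are shared with another TU on the same strand. With shared bases left out of the lengths, its estimate was 2.63 in place of 1.43.

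The constitutive beta ring had the highest median of the groups in RNA level (822 TPM) and in log2 relative half-life (3.56), and 6 of its 7 genes lay above the median mRNA. PSMB1 had the highest RNA level of all proteasome genes, at 1606, 1673, 1624 and 1640 TPM in RNA-seq and 221 and 211 TPM in PRO-seq, and lay 3.56 (SE 0.0435, edgeR adjusted p = 3.6e-33) above the median mRNA. PSMB3 had 945, 937, 929 and 918 TPM in RNA-seq but 69.3 and 73.8 TPM in PRO-seq. Its log2 relative half-life of 4.34 (SE 0.0602, edgeR adjusted p = 7.8e-32) exceeded that of 99.3% of mRNAs. PSMB4 had 820 ± 22 TPM in RNA-seq (SD, n = 4) and lay at 3.36 (SE 0.100). PSMB2 was the exception of the ring. It had 102, 95.2, 95.6 and 97.5 TPM in RNA-seq and 153 and 157 TPM in PRO-seq, so that its nascent level was the third highest of the ring while its RNA level was the lowest. Its estimate of -0.029 (SE 0.0452, edgeR adjusted p = 0.52) did not differ detectably from the median mRNA, with a sign that turns under other references given in the closing section.

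The catalytic subunits were compared with their immune partners next. In RNA-seq each constitutive gene exceeded its partner in all 4 libraries without overlap, and the ratio from summed counts was smaller in PRO-seq for each pair. PSMB5, the chymotrypsin-like subunit, had 712, 701, 748 and 706 TPM in RNA-seq and 170 and 191 TPM in PRO-seq. Its counted transcript has 444 bp of exons, covers 33.6% of the canonical exon bases and spans 2.01 times the canonical length, so its levels and ratio are uncertain. Its partner PSMB8, whose counted transcript overlaps at its 5′ end that of PSMB9 by 544 bp on the other strand of chromosome 6 (GRCh37), had 12.01, 9.36, 14.43 and 9.30 TPM in RNA-seq. In PRO-seq PSMB8 had 2.61 and 10.2 TPM from 2 and 8 counts (6.46 TPM over both, exact Poisson 95% interval 3.10 to 11.9). The ratio of PSMB5 to PSMB8 was 64.5 in RNA-seq and 27.9 in PRO-seq, where it ranged from 18.7 to 64.9 between libraries, so the assays did not differ beyond that range.

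PSMB6, the caspase-like subunit, had 359, 381, 379 and 386 TPM in RNA-seq but 14.23 and 13.96 TPM in PRO-seq. It had the highest log2 relative half-life of all proteasome genes, 5.37 (SE 0.199, edgeR adjusted p = 4.6e-21). That estimate rests on 5 PRO-seq counts in each library over a window of 1359 bp, and the nascent level has an exact Poisson 95% interval of 6.76 to 25.9 TPM. Its partner PSMB9 had 23.7, 23.4, 18.9 and 21.5 TPM in RNA-seq, and 2.14 and 1.05 TPM in PRO-seq from 8 and 4 counts (1.59 TPM over both, exact Poisson 95% interval 0.822 to 2.78). The counted PSMB9 transcript spans 2.73 times its canonical one, with 51.9% of the window under TUs on the opposite strand, and its levels are uncertain for that reason. The ratio of PSMB6 to PSMB9 was 16.9 in RNA-seq and 8.86 in PRO-seq, with ranges of 15.2 to 20.1 and 6.65 to 13.3, the latter from 10 and 12 counts in all.

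PSMB7, the trypsin-like subunit, had 853, 880, 846 and 882 TPM in RNA-seq and 96.1 and 106 TPM in PRO-seq, a log2 relative half-life of 3.74 (SE 0.0454, edgeR adjusted p = 3.2e-33). Its partner PSMB10 had 31.1, 34.2, 30.6 and 33.1 TPM in RNA-seq and 54.6 and 56.4 TPM in PRO-seq. In both libraries the nascent level of PSMB10 exceeded that of PSMB6, while its RNA level was below that of PSMB6 in all 4. Its estimate of -0.14 (SE 0.237, edgeR adjusted p = 0.58) was not called. The ratio of PSMB7 to PSMB10 was 26.8 in RNA-seq and 1.82 in PRO-seq, and the ranges over libraries (25.8 to 27.7 and 1.76 to 1.88) did not overlap. PSMB10 is short and 56.1% of its exon bases and 38.1% of its window are shared with a TU on the same strand (ENSG00000261884). With shared bases left out of the lengths its estimate was 0.40 (edgeR adjusted p = 0.10).

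**Figure D3:**
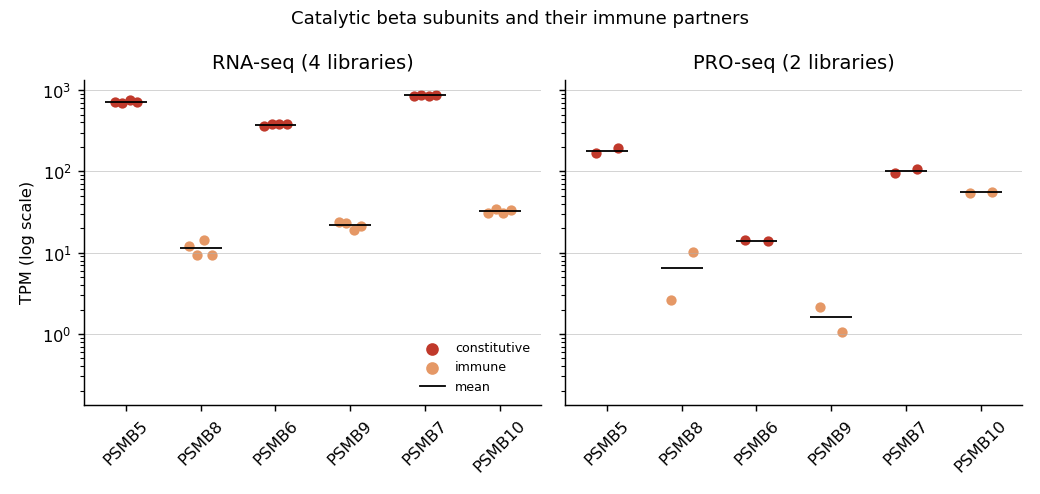
TPM on a log scale of the constitutive catalytic subunits (red) beside their immune partners (orange) in the 4 RNA-seq libraries (left) and the 2 PRO-seq libraries (right), with 1 point a library and the mean as a bar. PSMB7 and PSMB10 differ 26.8-fold in RNA-seq and 1.82-fold in PRO-seq.

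PSMB8, PSMB9 and PSMB10 together made up 3.35%, 3.30%, 3.14% and 3.14% of the summed TPM of the 6 catalytic genes in RNA-seq, and 17.5% and 17.9% in PRO-seq. The groups did not overlap, and the difference (RNA-seq minus PRO-seq) was -14.4 percentage points (exact permutation test over libraries, two-sided p = 0.067, the smallest that 4 against 2 libraries allow). With RNA-seq replicates 1 and 3, and 2 and 4, summed to 2 values, it was -14.4 (exact permutation p = 0.33, the smallest that 2 against 2 allow). With shared bases left out of the lengths the shares were 5.37% and 24.8%. PSMB10 carried most of the nascent share, so the limits on its counts hold here too.

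The 6 ATPases of the 19S base were all above the median mRNA, with a median of 2.22. PSMC3 had the highest RNA level at 693 ± 15.1 TPM (SD, n = 4) and lay at 2.99 (SE 0.0573). PSMC1 had the lowest RNA level of the constitutive subunits with an estimate, at 58.5, 56.6, 52.6 and 54.3 TPM, and its PRO-seq levels of 70.3 and 68.3 TPM were near those of PSMC2, PSMC4 and PSMC6. Its estimate was 0.33 (SE 0.0706, edgeR adjusted p = 1.1e-04). PSMC5 lay at 0.80 (SE 0.106), and neither PSMC1 nor PSMC5 passed the test for a difference beyond 2-fold. TUs on the opposite strand cover 66.7% of the PRO-seq window of PSMC2 and 36.8% of that of PSMC1, and counting by strand is not stated.

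Of the 11 other 19S subunits, 10 lay above the median mRNA and 9 passed the 2-fold test, with a median of 2.58. PSMD4, a ubiquitin receptor, had 658, 661, 662 and 646 TPM in RNA-seq and 64.5 and 52.7 TPM in PRO-seq. It lay at 4.13 (SE 0.0650, edgeR adjusted p = 1.7e-30), the highest of the PSMC and PSMD genes. PSMD14, the deubiquitinase of the lid, followed at 3.74 (SE 0.0481) and PSMD1, the large scaffold of the base, at 3.30 (SE 0.0433). PSMD11 lay at 0.80 (SE 0.0486) and was not past 2-fold. PSMD12, a lid subunit, had 94.0, 101, 93.3 and 107 TPM in RNA-seq and 163 and 161 TPM in PRO-seq. Its estimate of -0.076 (SE 0.0524, edgeR adjusted p = 0.17) was not called, but it passed below the median mRNA without RNA-seq replicate 4 (-0.12, edgeR adjusted p = 0.033).

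**Figure D4:**
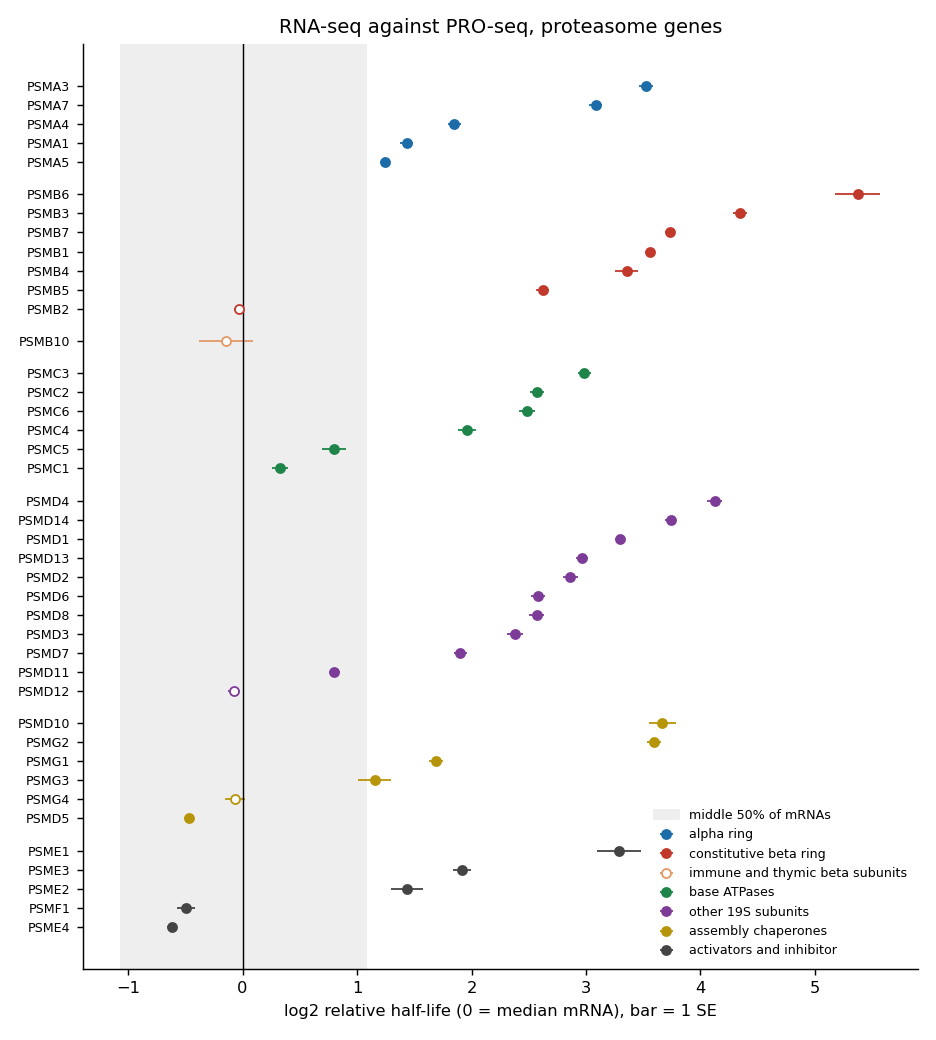
log2 relative half-life of the 41 genes with an estimate, by role, with 0 as the median mRNA, bars of 1 SE, open symbols for the 4 genes not called and a grey band for the middle 50% of mRNAs. Within the beta ring PSMB2 stands at -0.029 while the other six lie between 2.62 and 5.37.

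Subunits that occupy the complex in equal numbers were far from equal in RNA. Over the 29 constitutive core and 19S subunits with an estimate, RNA-seq TPM ran from 55.9 (PSMC1) to 1637 (PSMB1), a 29.3-fold range. PRO-seq TPM ran from 14.1 (PSMB6) to 216 (PSMB1), or 15.3-fold, and 5.17-fold without PSMB6. The SD of log2 TPM over these genes was 1.20, 1.22, 1.22 and 1.21 in the RNA-seq libraries and 0.805 and 0.841 in the PRO-seq libraries. The groups did not overlap, with a difference of 0.39 (exact permutation test over libraries, two-sided p = 0.067, the smallest that 4 against 2 libraries allow). With RNA-seq replicates 1 and 3, and 2 and 4, summed as above, 2 values against 2 gave the same difference of 0.39 (exact permutation p = 0.33, the smallest this allows). A wider spread in RNA-seq was also seen over the mRNAs with an estimate (2.06 against 1.25) and over the ribosomal protein genes (2.17 against 1.64). The 8 CCT genes, in contrast, had 0.525 in RNA-seq and 0.728 in PRO-seq. An estimate requires a minimum level in each assay, which can by itself narrow a spread. The nascent minimum of 10 TPM lies nearer the median of these mRNAs (47.5 TPM) than the RNA minimum of 1 TPM does (31.2 TPM). The minima can thus narrow the PRO-seq spread more, and by how much was not tested. Of the constitutive subunits, PSMA2 and PSMA6, at 0 PRO-seq counts, were left out in this way. Across the 29 subunits, log2 levels in the assays had a Pearson's r of 0.19 and a Spearman's rho of 0.30 (a description across genes, which share libraries), against 0.57 and 0.55 across 8733 mRNAs. The subunits spread less than the mRNAs in both assays, by the SDs above. A narrower range can by itself lower a correlation, so the lower values do not show a looser link, and this was not tested.

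The spread in RNA level went with the exon length of the counted transcript. Across the 29 constitutive subunits, Pearson's r of log2 exon length was -0.71 with log2 RNA-seq TPM, 0.028 with log2 PRO-seq TPM and -0.66 with log2 relative half-life (across genes, n = 29). Exon length is the divisor of RNA-seq TPM, so length and level share a term. The 8 subunits with over 3000 bp of exons (PSMA4, PSMA5, PSMB2, PSMC1, PSMC2, PSMD1, PSMD11 and PSMD12) had a median of 1.02, and the 21 shorter ones had 2.96. Among all mRNAs the medians were -0.37 and 0.57, and the correlation of log2 exon length with log2 relative half-life was -0.32. PSMB2, PSMC1 and PSMD12 have 3823, 3070 and 2988 bp of exons outside the coding sequence and lie at -0.029, 0.33 and -0.076. PSMA4 and PSMA5 have 3595 and 3092 bp and lie higher, at 1.85 and 1.24. PSMB1 and PSMB3 have 168 and 147 bp. Whether these long exons are used in full in K562 was not tested.

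**Figure D5:**
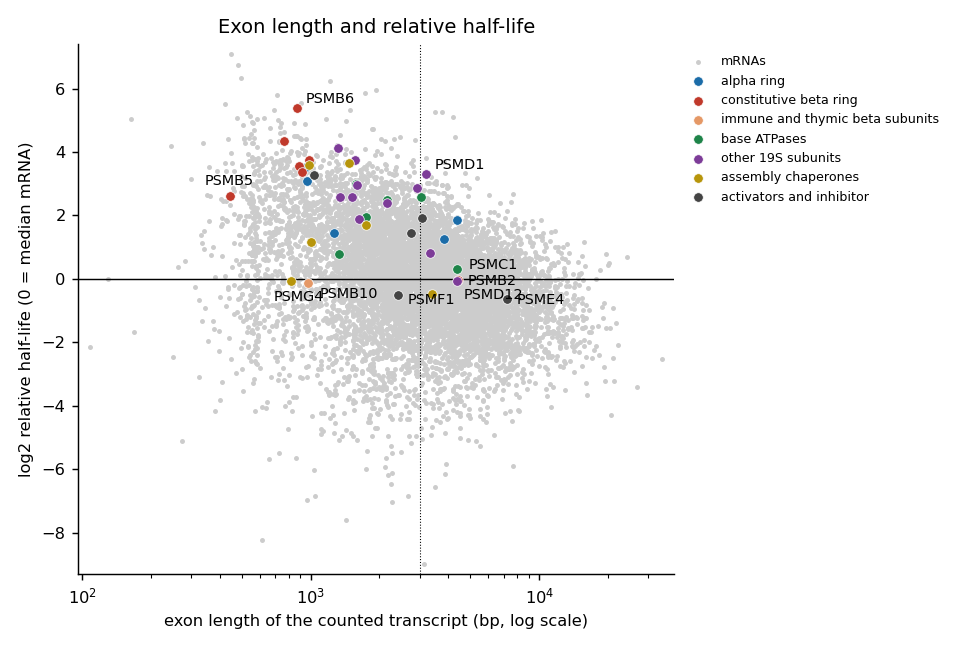
log2 relative half-life against the exon length of the counted transcript (log scale) for mRNAs (grey) and the 41 proteasome genes (coloured by role), with a dotted line at 3000 bp. Of the 8 constitutive subunits right of the line, PSMB2, PSMD12, PSMC1 and PSMD11 lie between -0.076 and 0.80. PSMA5, PSMA4, PSMC2 and PSMD1 lie between 1.24 and 3.30. PSMD5, PSME4 and PSME3 also lie right of the line, at -0.47, -0.62 and 1.92.

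The assembly chaperones were divided. PSMG2, which pairs with PSMG1 to start the alpha ring, lay at 3.59 (SE 0.0627) and PSMD10, the 19S chaperone also called gankyrin, at 3.67 (SE 0.120). PSMG1 lay at 1.69 (SE 0.0636) and PSMG3 at 1.15 (SE 0.145). The counted PSMG3 transcript covers 33.3% of the canonical exon bases. PSMG2 was counted over 2.95 times its canonical span, and its PRO-seq level is spread over that length. PSMG4 had 35.3, 43.2, 41.8 and 37.7 TPM in RNA-seq and 64.2 and 64.1 TPM in PRO-seq, and at -0.064 (SE 0.0867, edgeR adjusted p = 0.48) was not called. Its counted transcript covers 27.1% of the canonical exon bases and spans 4.88 times the canonical length. PSMD5, a chaperone of the base, had 119, 112, 117 and 114 TPM in RNA-seq but the highest nascent level of all proteasome genes, 246 and 251 TPM in PRO-seq. It lay below the median mRNA at -0.47 (SE 0.0448, edgeR adjusted p = 5.9e-11). TUs on the opposite strand cover 66.1% of the PRO-seq window of PSMD5, 77% of that of PSMG4 and 60.3% of that of PSMG2. Because counting by strand is not stated, the nascent levels of these genes are uncertain.

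The activators and the inhibitor were also divided. PSME1 and PSME2 form the interferon-inducible PA28 cap, and their genes lie 4447 bp apart on chromosome 14 (GRCh37). PSME1 had 160, 175, 160 and 174 TPM in RNA-seq and 19.4 and 33.8 TPM in PRO-seq, and lay at 3.29 (SE 0.194, edgeR adjusted p = 6.2e-16) from 9 and 16 PRO-seq counts. PSME2 had 91.6, 97.6, 93.7 and 99.8 TPM in RNA-seq and 46.1 and 63.9 TPM in PRO-seq, and lay at 1.43 (SE 0.139, edgeR adjusted p = 7.7e-11). The counted PSME2 transcript is annotated as a retained intron with 2754 bp of exons, against 793 bp in the canonical one, which lowers its RNA-seq TPM per count. PSME3, the nuclear PA28 gamma, had 116, 111, 122 and 111 TPM in RNA-seq and 52.5 and 41.7 TPM in PRO-seq, and lay at 1.92 (SE 0.0790, edgeR adjusted p = 6.6e-20). The counted PSME3 transcript spans 1.82 times the canonical length and covers 74.9% of the canonical exon bases, so its levels are uncertain.

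PSME4 and PSMF1 had the lowest ratios of all. PSME4, the large activator PA200, had 35.1, 35.2, 36.97 and 34.8 TPM in RNA-seq and 84.1 and 85.1 TPM in PRO-seq, and lay at -0.62 (SE 0.0447, edgeR adjusted p = 8.4e-14). PSMF1, the inhibitor PI31, had 20.8, 19.8, 20.8 and 18.4 TPM in RNA-seq and 45.7 and 41.7 TPM in PRO-seq, at -0.49 (SE 0.0778, edgeR adjusted p = 9e-07). PSMF1 had the lowest RNA level of the 41 genes, followed by PSMB10. The counted PSMF1 transcript is annotated for nonsense-mediated decay and covers 12.1% of the canonical exon bases. PSME4, PSMF1 and PSMD5 were below by less than 2-fold, and without TPM thresholds, which moved the reference by 0.63 on the log2 scale, none of the 3 stayed below.

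Other genes of the pathway lay on both sides of the median mRNA. Of 28 listed genes for further subunits, receptors, shuttling factors, regulators and ubiquitin, all were tested, with a median of 0.60. In this list 18 lay above (64.3%, against 40.0% of all TUs and 45.4% of mRNAs), 9 lay below and 1 was not called. Whether this list differs from the proteasome genes was not tested. The small 19S subunit SEM1 lay at 4.85 (SE 0.0683), the ubiquitin gene UBB at 3.40 (SE 0.0683), the 20S maturation factor POMP at 2.85 (SE 0.0579) and the 19S receptor ADRM1 at 2.23 (SE 0.105). SEM1 had 1772 PRO-seq counts at 15.2 TPM and POMP 778 at 79.1 TPM, so SEM1 was counted over a much longer window. The nascent level of SEM1 is spread over that length. Counted spans of the listed genes were not compared with canonical ones, and the SEM1 value is uncertain to that extent. The 2 lowest were ZFAND5 and AKIRIN2. ZFAND5, which stimulates the proteasome, lay at -2.39 (SE 0.0656), AKIRIN2, which takes proteasomes into the nucleus, at -1.91 (SE 0.106), and the protease DDI2, which activates NFE2L1, at -1.27 (SE 0.0503). NFE2L1 itself lay at 0.98 (SE 0.0779) and NFE2L2 at -0.18 (SE 0.0585). For NFE2L2, 67% of the PRO-seq window and 17.8% of the exon bases are shared with other TUs on the same strand. For DDI2, 20.6% of the exon bases are shared in this way, and both values are uncertain for that reason. Over the 11 genes with an antioxidant response element and an estimate, the median log2 relative half-life was 1.69, and it was 2.53 over the 24 genes with a window that lacked it. The 6 genes without a window, PSMA7, PSMB1, PSMB6, PSMB7, PSMD4 and PSMG3, enter neither median. They lay at 3.08, 3.56, 5.37, 3.74, 4.13 and 1.15. The difference between the medians was not tested.

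The antigen-processing genes, which work with the immune subunits, had a median RNA level of 13.2 TPM where an estimate was made. Of 9 genes reported, B2M and HLA-B were not analysed here, TAP2 was listed at 0 counts, HLA-C and NLRC5 were under the thresholds, and 4 had an estimate. For TAP2, 100% of the PRO-seq window and 80.6% of the exon bases are covered by other TUs on the same strand. Whether reads shared with these TUs were left uncounted was not tested, so its 0 counts do not show a lack of RNA. TAP1 lay above the median mRNA, and TAPBP, ERAP1 and IRF1 lay below it. TAP1, the peptide transporter subunit whose gene neighbours PSMB9, had 12.5 RNA-seq TPM and lay at 0.83 (SE 0.211). IRF1, a transcription factor of the interferon response, had 9.43 RNA-seq TPM and lay at -1.92 (SE 0.136). NLRC5, which activates this set of genes, had 9 RNA-seq counts in all.

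Pseudogene copies of the subunit genes had few counts. The PRO-seq window leaves out 1000 bp of each span, so short copies could hardly be detected in that assay. No detection limit was computed for them, and their PRO-seq counts do not show a lack of transcription. Of 17 pseudogenes named after 6 of the genes, 7 had RNA-seq counts and 2 had a PRO-seq count, 1 each. PSMC2P1 had the most, 376 RNA-seq counts in all, or 4.21% of those of PSMC2, and the next was PSMD12P1 with 75 (1.28% of PSMD12). Reads can be split between such copies and their parents, and the levels of PSMC1, PSMC2 and PSMD12 are uncertain to that extent.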

How the data were processed

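Nascent RNA (PRO-seq, 2 libraries) and steady-state RNA (total RNA-seq, 4 libraries) were measured in K562 cells. The authors deposited raw read counts per transcript from HTSeq; cutadapt, HISAT2 and the build GRCh38 are named in the submitters' processing notes. Versions of these tools, and whether counting was by strand, were not stated in the labels or methods. The labels name the longest transcript of each gene and 500 bp left out for PRO-seq, and the methods 500 bp at each end. Rows that name no TU held 66.5% to 68.6% of the records in RNA-seq and 86.5% to 88.6% in PRO-seq and were left out.

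Transcripts were joined by identifier to GENCODE release 44 on GRCh37 (37339 of 42371 found), which supplied lengths and overlaps. TPM was computed from summed counts, on exon lengths (RNA-seq) or the span less 1000 bp (PRO-seq). Relative half-life was the ratio of the former to the latter where RNA-seq exceeded 1 TPM and PRO-seq 10 TPM. SEs and adjusted p-values came from the quasi-likelihood test of edgeR (version 4.0.16, R version 4.3.3) on the counts of all TUs, with TMM normalization, length offsets, centring on the median mRNA and Benjamini-Hochberg adjustment. It differed from the TPM ratio by at most 0.0076 (log2) for these genes. DESeq2 (version 1.42.0), other lengths, filters, references, a replicate block and each library left out were alternatives, and the steps were tested on simulated data. Python 3.11.15 was used otherwise. No protein sequences were used here.

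The genes, gene lists and tests were chosen with earlier results of these data known. Any of the 48 genes could be named. Full values were given for the catalytic pairs, PSMA8, PSMB11, the 3 highest and 3 lowest relative half-lives, the 2 highest and 2 lowest RNA levels, the activators and the inhibitor, and other genes were chosen after their values were seen. Alternatives on TUs that share bases, and on summed pairs of RNA-seq libraries for the permutation tests, were added after seeing the data. Some genes of the marker and antigen-processing lists are not reported here.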

Additional observations from a re-analysis of the deposited data

Results flagged for a closer look

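In 4 of 48 sets of 4 RNA-seq libraries, 1 library stood apart from the other three by more of the range than Dixon's 95% critical value, which chance gives in about 1 of 20 sets. The 48 sets include PSMA6 and PSMB11, at 0 counts in every library, where no library can stand apart. PSMA8 was at 0.39 TPM in replicate 2, from 3 counts, and at 0 in the others. PSMB4 was at 787 TPM in replicate 3, against 829 to 832 in the others. PSMD7 was at 430.2 TPM in replicate 2, against 402 to 406. PSME4 was at 36.97 TPM in replicate 3, against 34.8 to 35.2. PSMA8 has no estimate and so no call. For PSMB4, PSMD7 and PSME4 the call did not change when that library was left out.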

How the results depend on the processing

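The counts of 34 proteasome genes above and 3 below the median mRNA stayed within 1.5 times under the alternatives run, except that 0 lay below without TPM thresholds (of 45 tested) and with a difference beyond 2-fold. Over all TUs, 4019 above and 5068 below became 6583 and 8001 without TPM thresholds, and 2141 and 2998 beyond 2-fold. The median log2 relative half-life of 2.48 moved by more than the SD of 0.11 over library combinations to 3.11 without thresholds and to 2.34 above 20 and 2 TPM, and ranged from 2.33 to 2.50 with 1 library left out. Single genes kept their side and call in 631 of 654 alternatives, and 30 of 41 genes did in all of theirs. The sign turned for genes near 0. Centring on all TUs moved every value by 0.24 and gave 0.21 for PSMB2, 0.099 for PSMB10, 0.17 for PSMD12 and 0.18 for PSMG4. Without thresholds the reference moved by 0.63, which gave 0.60 for PSMB2, 0.49 for PSMB10, 0.55 for PSMD12, 0.57 for PSMG4, 0.16 for PSMD5, 0.012 for PSME4 and 0.14 for PSMF1. With 500 bp removed for PRO-seq PSMB10 was at 0.26, and with lengths free of shared bases PSMB2 was at 0.013 and PSMB10 at 0.40. PSMD12 was called below above 20 and 2 TPM (-0.12). The differences in spread and in immune share kept their direction under all alternatives run.

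The assays share replicate numbers 1 and 2, and no label says that they pair. The deviations of same-numbered libraries were not correlated (r = -0.012 over 9997 TUs). With all cells from a single flask, this correlation cannot decide whether libraries were paired. With the replicate block the counts were 34 above and 3 below for proteasome genes, and 3916 and 4962 over all TUs. Depth limits PSMB6, PSMB8, PSMB9, PSMB10 and PSME1, whose PRO-seq values rest on few counts.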
